A study of Mus musculus with 18 samples.

Results

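Ribosome-bound RNA of cerebellar Purkinje cells was compared between mice carrying the CGG90Fmr1 transgene and wild-type mice at 8 weeks of age, in 6 of the 18 libraries of the series. The members were the 3 libraries whose titles give CGG90Fmr1 and 8weeks and the 3 whose titles give wildtype and 8weeks. The remaining 12 libraries covered, by their titles, the same genotypes at 4 and 12 weeks, with 3 libraries in each group. They are used here for the estimate of the spread and as a reference range. All mice were F1 progeny of mixed background (50% C57B6, 50% FVB), and the wild-type controls were littermates where possible. Every mouse, wild type included, was hemizygous for the L7/Pcp2 EGFP-L10a BAC, which marks the ribosomes of Purkinje cells with a fluorescent tag, and the CGG90 mice were hemizygous for L7CGG90Fmr1 as well. The transgene carries 90 CGG repeats joined to Fmr1 and is driven by the promoter of Pcp2 (L7). The study had no group with a transgene of short repeat, so repeat length and extra Fmr1 cannot be told apart. Each library was prepared from the pooled cerebella of 4 mice, 2 male and 2 female according to the labels, and was measured on 1 array, so the p-values below refer to the spread between pools. The pools of replicate 3 of both genotypes shared an immunoprecipitation date, and no other pool at 8 weeks shared its date with a pool of the other genotype and the same age. CGG90 replicate 1 shared its date with 3 pools of 12 weeks, 1 of them wild type. The running numbers in the titles form one block for the CGG90 libraries and another for the wild-type libraries at 8 weeks, so whatever those numbers stand for cannot be told apart from genotype.

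In humans, repeat expansions of premutation length in the CGG tract of FMR1 are associated with the fragile X tremor/ataxia syndrome, in which Purkinje cells are lost and nuclear inclusions form. The expanded RNA binds proteins such as Pura, hnRNP A2/B1 and the DROSHA-DGCR8 complex, and the repeat can also be translated without a start codon. Purkinje cells are large GABAergic neurons that form the sole output of the cerebellar cortex, and the affinity step of the TRAP method draws on their tagged ribosomes while RNA of neighbouring cells remains as background.

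The 250 bases in front of the transcription start of mouse Fmr1 and of Pcp2 are shown because the transgene exchanges the control of one for that of the other. They were taken from RefSeq (GRCm38.p6), at chrX:68678291-68678540 on the plus strand and at chr8:3625548-3625797 on the minus strand, and run 5′ to 3′ with CG dinucleotides in capitals. Which stretch of the Pcp2 gene the transgenes hold is not given in the sources used here.

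Fmr1: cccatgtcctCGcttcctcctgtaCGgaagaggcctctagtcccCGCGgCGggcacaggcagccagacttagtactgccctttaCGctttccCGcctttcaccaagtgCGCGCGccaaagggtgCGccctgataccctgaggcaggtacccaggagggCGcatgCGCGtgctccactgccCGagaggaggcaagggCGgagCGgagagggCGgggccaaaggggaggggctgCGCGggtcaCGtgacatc

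Pcp2: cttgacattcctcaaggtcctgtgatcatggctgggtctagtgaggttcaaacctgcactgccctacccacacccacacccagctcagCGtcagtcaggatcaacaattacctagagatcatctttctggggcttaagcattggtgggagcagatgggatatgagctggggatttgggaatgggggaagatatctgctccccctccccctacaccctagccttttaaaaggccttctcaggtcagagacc

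The Fmr1 window held 21 CG dinucleotides and 67.2% G and C, and the Pcp2 window 1 and 52.8%. Over 32851 windows of the same length the median was 6 CG dinucleotides, 92.1% held at least 1, and the median G and C content was 52.4%. The search motif was CG, which reads the same on both strands. These counts describe the letters of the windows only.

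All values are on the log2 scale of the deposited table, 1 value per probe set and library. Across the 18 libraries the 75th percentile of the log2 values was between 6.30 and 6.78, and the lowest was that of CGG90 replicate 1 at 8 weeks. Of 18194 genes with a probe set of a single symbol, 10068 were tested, namely those that reached log2 4 in 3 or more of the 18 libraries. One probe set was used per gene, that of highest mean over the 18 libraries. Differences are CGG90 minus wild type, on the log2 scale, and levels are never compared between genes.

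Purkinje cell markers were measured in every library, markers of other cells were too, and both genotypes held 1 library with less RNA of other cells. No library of unbound or whole cerebellar RNA was used here, so the enrichment itself was not measured. Pcp2, the marker whose promoter drives the tag, was at 15.01, 14.94 and 14.91 in CGG90 replicates 1, 2 and 3 and at 14.93, 14.78 and 14.91 in the wild-type replicates. The mean of 17 Purkinje cell markers was 12.21, 12.32 and 12.29 in the CGG90 libraries and 12.40, 12.20 and 12.47 in the wild-type libraries, so the groups overlapped. Rpl10a, which encodes the ribosomal protein used as the tag, was at 12.90, 12.77 and 12.64 in CGG90 and at 12.68, 12.56 and 13.04 in wild type (difference 0.01 ± 0.23 SE). Of the 17 Purkinje markers 12 were lower in CGG90 and 5 higher, with a median difference of -0.09 beside -0.07 over all tested genes. The median of the markers was 0.01 when arrays were centred on their median. None of the 17 was called, and in 2 the groups did not overlap, both with lower values in CGG90 (4.57% of all tested genes did so): Gad2, an enzyme of GABA synthesis, with a difference of -0.48, and the transcription factor Foxp2 with -0.32. Foxp2 was at 6.87, 6.68 and 6.86 in CGG90 and at 6.93, 6.88 and 7.56 in wild type, so that its groups were only just apart. In RNA of pooled tissue, fewer cells of a type and less RNA per cell cannot be told apart.

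RNA from other cerebellar cells was followed with Mbp of oligodendrocyte myelin, Cbln1 of granule cells and Laptm5 of microglia. Their mean log2 value was 11.17, 8.91 and 11.30 in CGG90 replicates 1, 2 and 3. It was 10.82, 11.77 and 9.19 in the wild-type replicates. CGG90 replicate 2 and wild-type replicate 3 were therefore the low libraries, 1 in each group, and the groups overlapped. The difference of the means was -0.13 (10.46 ± 1.34 SD against 10.60 ± 1.31 SD, n = 3 in each group, two-sided exact permutation p = 0.9, with 0.1 the smallest p that 3 against 3 can give). Over 64 markers of 9 other cell classes the difference was -0.01 (exact permutation p = 1.0). On the shared immunoprecipitation date the difference of the 3-gene mean was 2.11, opposite in sign to the pooled value, and the wild-type pool of that date was replicate 3, one of the low libraries. Granule cell markers averaged 8.91, 6.87 and 9.15 in CGG90 and 8.37, 9.57 and 7.00 in wild type. Microglial markers averaged 8.15, 5.15 and 7.65 in CGG90 and 7.07, 7.77 and 4.13 in wild type. All 6 tested microglial markers were higher in CGG90 (median difference 0.57), but the range within each group was wider than that, none was called, and the median was 0.21 without both low libraries and -0.05 without CGG90 replicate 1. Only 6 of the 14 listed microglial markers and 3 of the 13 endothelial and mural markers passed the filter. The median differences of the other marker lists were -0.13 for 13 granule cell genes, -0.28 for 12 of astrocytes and Bergmann glia, -0.31 for 12 of oligodendrocytes, 0.03 for 6 of their precursors, -0.71 for 3 of endothelial and mural cells, -0.04 for 8 of interneurons, -0.22 for 2 of blood cells and 0.27 for 3 of the choroid plexus. On the shared date the medians of the granule cell, astrocyte, oligodendrocyte and microglial lists were 1.97, 2.07, 1.79 and 3.30. None of these genes had groups that did not overlap.

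**Figure D1:**
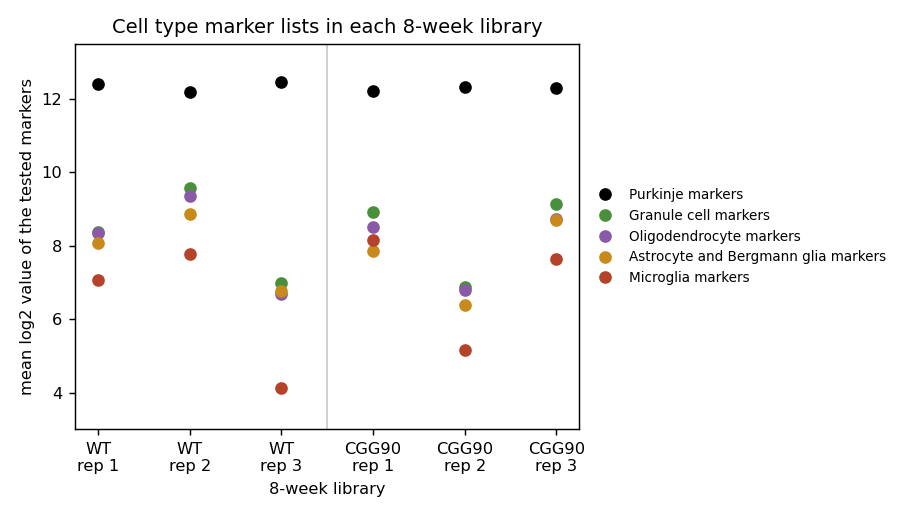
Mean log2 value of the tested markers of 5 cell types (vertical axis) in each of the 6 libraries at 8 weeks (horizontal axis), with wild type at the left and CGG90 at the right of the line. The Purkinje marker mean lies between 12.20 and 12.47 in every library, while the 4 other marker means are lowest in wild-type replicate 3 and CGG90 replicate 2.

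Fmr1, the gene in the transgene, was higher in all 3 CGG90 libraries than in any wild-type library. Its brightest probe set (1426086_a_at) was at 11.01, 11.66 and 11.90 in the CGG90 replicates. It was at 5.60, 8.53 and 7.91 in the wild-type replicates. The groups did not overlap, and the wild-type libraries were spread over a wider range (SD 1.54) than the CGG90 libraries (SD 0.46). The difference was 4.18 ± 1.11 SE, an 18.1-fold ratio, with an unadjusted p of 0.00203 and a Benjamini-Hochberg adjusted p of 1.00 in limma. It was 3.99 on the shared date and between 3.31 and 4.77 when each 8-week library was left out in turn. The fit pooled the spread of all 6 groups, and the CGG90 libraries at 12 weeks had an SD of 3.19 for this probe set. Their replicates 1, 2 and 3 were at 7.10, 6.03 and 12.01, beside 7.63, 8.39 and 7.78 in the wild-type libraries at 12 weeks. Replicate 3 was thus the only one of these at the level of the CGG90 libraries at 8 weeks. Why replicates 1 and 2 were low was not tested. When CGG90 replicate 3 at 12 weeks was left out, a setting added after the values were seen, the difference at 8 weeks was the same and its adjusted p was 0.0404.

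The other Fmr1 probe sets did not all show the difference. Probe set 1452550_a_at was at 8.38, 9.81 and 9.36 in CGG90 and at 5.69, 5.73 and 5.61 in wild type, again without overlap (difference 3.51). Probe set 1423369_at was at 4.38, 5.47 and 5.97 in CGG90 and at 5.88, 5.99 and 6.32 in wild type (difference -0.79), and its groups overlapped. Which part of the transcript each probe set reads is not given in the sources used here. FMRP, the protein that Fmr1 encodes, is an RNA-binding repressor of translation.

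**Figure D2:**
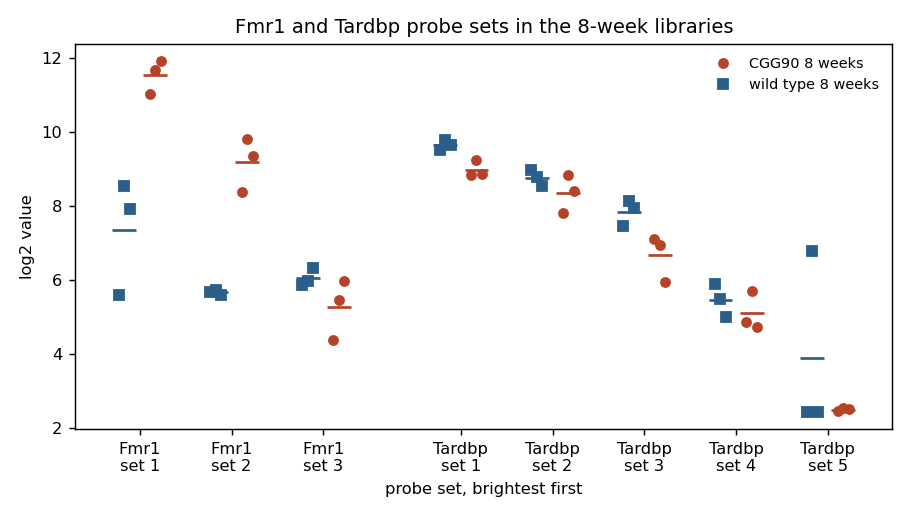
Log2 values (vertical axis) of the 3 Fmr1 and 5 Tardbp probe sets, brightest first (horizontal axis), in the 3 wild-type libraries (squares) and 3 CGG90 libraries (circles) at 8 weeks, with horizontal lines at the group means. The upper 2 Fmr1 probe sets are higher in every CGG90 library, the third is not, and all 5 Tardbp probe sets have a lower mean in CGG90.

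Over all tested genes, 1 passed an adjusted p of 0.05 (0.00993% of 10068), and it was higher in CGG90. At an unadjusted p below 0.05 there were 374 genes (3.71%), of which 123 were higher in CGG90 (1.22%) and 251 lower (2.49%). In 727 genes (7.22%) the groups did not overlap, with CGG90 higher in 267 (2.65%) and lower in 460 (4.57%). These shares are the reference for every count of groups apart in the gene lists below. The lists were chosen with earlier results of these data known, so such counts are not independent of the genes of smallest p. The excess on the lower side depended on the scaling. Of the 727 genes, 63.3% were lower in CGG90. Counted anew, the share was 51.1% of 707 genes after quantile normalisation and 42.3% of 714 after centring each array on its median. Of the genes with an unadjusted p below 0.05 under each of the 3 scalings, 67.1%, 54.1% and 47.7% were lower. Of all tested genes 5787 (57.5%) were lower and 4281 (42.5%) higher, with a median difference of -0.07, which was -0.02 after quantile normalisation and 0.02 after centring.

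Of the CGG90 libraries, replicate 1 was the lowest most often. Among the 460 genes whose groups did not overlap on the lower side, CGG90 replicate 1 was the lowest of the 3 CGG90 libraries in 249 (54.1%), and it was the lowest in 42.9% of all tested genes. Wild-type replicate 2 was the lowest of its group in 42.5% of all tested genes. CGG90 replicate 2 was at least 2 log2 units below both others of its group in 361 tested genes, against 300 for CGG90 replicate 1. Without CGG90 replicate 1 the genes of unadjusted p below 0.05 numbered 286, of which 49.0% were lower in CGG90. CGG90 replicate 1 also had the lowest 75th percentile of the series, and the part of this in single differences was not tested.

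**Figure D3:**
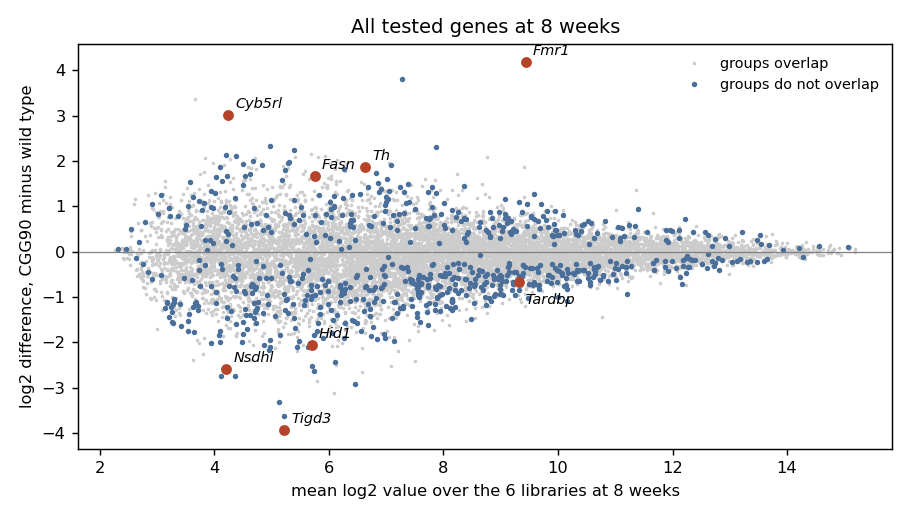
Log2 difference between CGG90 and wild type at 8 weeks (vertical axis) against the mean log2 value over the 6 libraries (horizontal axis) for the 10068 tested genes. Blue points are the 727 genes whose groups did not overlap, red points are 8 genes described in the text, and Fmr1 (4.18) and Tigd3 (-3.94) lie at the extremes.

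Cyb5rl was the gene that passed the test, and it entered the test only through the CGG90 libraries at 8 weeks, since no other library reached log2 4. It encodes a relative of NADH-cytochrome b5 reductase, a family of enzymes that pass electrons to cytochrome b5 for steps such as fatty acid desaturation. Its only probe set (1427423_at) was at 5.62, 6.51 and 5.09 in the CGG90 replicates. It was at 2.68, 2.65 and 2.84 in the wild-type replicates, and between 2.66 and 2.78 in the 12 libraries at 4 and 12 weeks. The 3 CGG90 libraries at 8 weeks thus stood above all 15 others, all of which lay near the lower end of the scale. The difference was 3.02 ± 0.27 SE (adjusted p = 0.00018, limma with Benjamini-Hochberg adjustment) and 2.25 on the shared date. Without any filter on low values the adjusted p was 0.000207. Of the 10068 tested genes, 15 (0.149%) had all 3 CGG90 libraries at 8 weeks above every other library and 11 (0.109%) below. Over the 6 groups of the series the corresponding numbers ran from 5 to 18 genes above and from 3 to 25 below. The SD was 0.71 in the CGG90 group against 0.10 in the wild-type group. The call was lost with the 8-week libraries fitted alone (difference 3.02, adjusted p = 1.00) and with values under 4 set to 4 (1.74, adjusted p = 0.0932). It was also lost with the date as a block (2.25, adjusted p = 0.167). With the mean of Mbp, Cbln1 and Laptm5 as a covariate the difference was 2.99. Since there is no second probe set, the value has no check within the array.

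**Figure D4:**
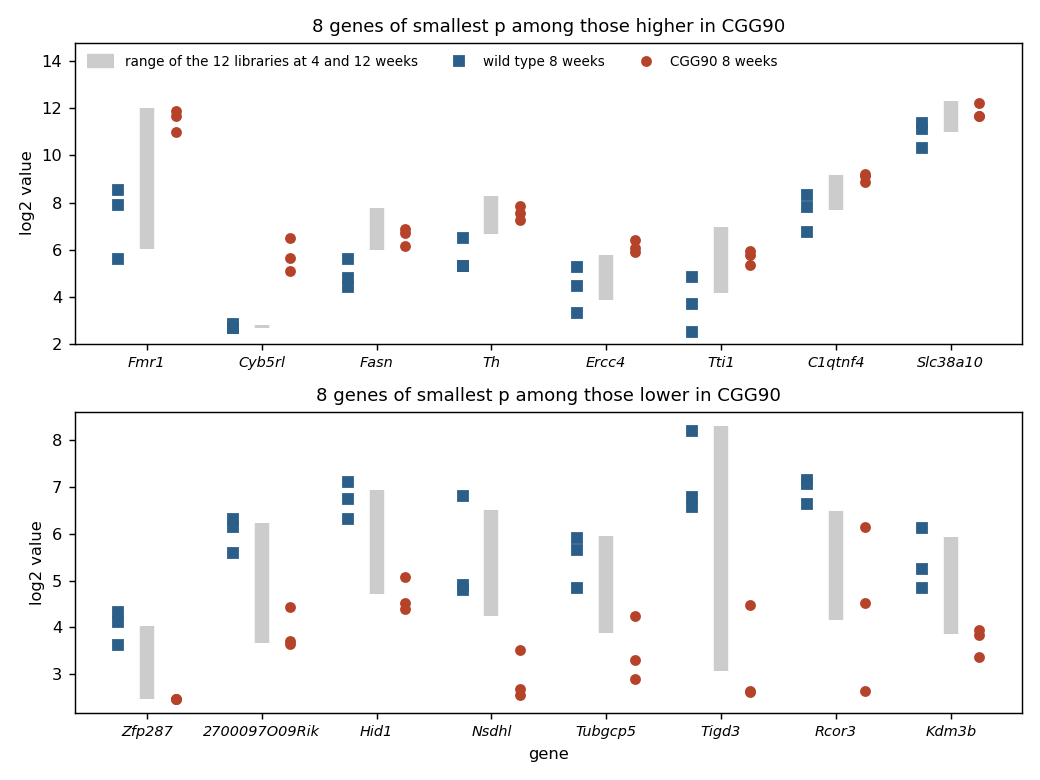
Log2 values (vertical axis) of the 16 genes with the smallest p-values, 8 higher above and 8 lower below (horizontal axis), for the 3 wild-type libraries (blue squares) and 3 CGG90 libraries (red circles) at 8 weeks, with grey bars for the range of the 12 libraries at 4 and 12 weeks. Cyb5rl is more than 2 log2 units above the grey bar in all 3 CGG90 libraries, Fasn and Th are below it in wild type, and Nsdhl is below it in CGG90.

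The other genes of smallest p with higher values in CGG90 did not pass the adjusted test, and in 2 of them it was the wild-type group that lay outside the range of the remaining libraries. Fasn, fatty acid synthase, was at 6.89, 6.16 and 6.70 in CGG90 and at 5.60, 4.77 and 4.40 in wild type (difference 1.66 ± 0.34 SE, adjusted p = 0.335 in limma). All 3 wild-type libraries at 8 weeks lay below the 12 libraries of the other ages, which ranged from 6.00 to 7.75 and took in the CGG90 values. Th, tyrosine hydroxylase, the rate-limiting enzyme of catecholamine synthesis and a transcript also found in subsets of Purkinje cells, was at 7.87, 7.57 and 7.25 in CGG90 and at 5.30, 5.30 and 6.48 in wild type (1.87 ± 0.40 SE, adjusted p = 0.493). Here too the wild-type libraries were below all 15 others, and the difference on the shared date was 0.77. Wild type at 8 weeks lay below all 15 other libraries in 8 tested genes (0.0795%) and above them in 5 (0.0497%).

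Slc38a10, a member of the family of sodium-coupled amino acid transporters, was at 12.22, 11.70 and 11.70 in CGG90 and at 11.38, 11.12 and 10.31 in wild type (0.94 ± 0.27 SE, adjusted p = 1.00). All 4 of its other probe sets that reached a log2 value of 4 at 8 weeks were also higher in CGG90, by 0.19 to 0.94. C1qtnf4, a secreted protein of the C1q and TNF-related family, was at 9.23, 9.12 and 8.87 in CGG90 and at 7.83, 6.74 and 8.33 in wild type (1.45). Tti1, a partner of the PI3K-related kinases, was at 5.32, 5.76 and 5.94 against 4.85, 3.70 and 2.47 (2.00). Ercc4, a nuclease subunit of nucleotide excision repair, was higher in all 3 CGG90 libraries than in the 15 others (difference 1.80), but its one other probe set reaching log2 4 differed by -0.39.

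Among the 8 genes of smallest p that were lower in CGG90, the CGG90 group lay below all other libraries in 2, Nsdhl and Zfp287. Nsdhl encodes the sterol dehydrogenase that removes a methyl group of the ring system during cholesterol synthesis. Its probe set was at 2.55, 2.68 and 3.51 in CGG90 and at 4.80, 4.90 and 6.82 in wild type (-2.59 ± 0.53 SE, adjusted p = 0.335 in limma). The CGG90 libraries were below all 15 others, of which the 12 at 4 and 12 weeks ranged from 4.24 to 6.52, and the difference was -1.97 with Mbp, Cbln1 and Laptm5 as 3 covariates. Hid1, a protein needed for the formation of dense-core vesicles, was at 4.39, 4.53 and 5.07 in CGG90 and at 7.11, 6.75 and 6.32 in wild type (-2.06 ± 0.40 SE, adjusted p = 0.292). The groups did not overlap, and the 12 other libraries spread from 4.71 to 6.94, between the lowest CGG90 and the highest wild-type value. Zfp287, a zinc finger protein, was at 2.48, 2.48 and 2.47 in CGG90, the lower end of the scale, and at 4.11, 4.34 and 3.62 in wild type (-1.55 ± 0.27 SE, adjusted p = 0.237), while the 12 other libraries began at 2.48. Its adjusted p was 0.0261 after quantile normalisation, and its difference was -0.15 (adjusted p = 1.00) when values under 4 were set to 4.

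Tigd3, a gene derived from a transposase, had the largest of these differences, at 2.62, 2.64 and 4.49 in CGG90 and 6.79, 8.20 and 6.58 in wild type (-3.94 ± 0.99 SE, adjusted p = 1.00), within a range of 3.06 to 8.32 in the other 12 libraries. Tubgcp5, a component of the gamma-tubulin ring complex, differed by -1.98, 2700097O09Rik by -2.10 and Kdm3b, a histone H3 lysine demethylase, by -1.70, each without overlap. Rcor3, a relative of the corepressor of REST, differed by -2.52, with the wild-type libraries (7.15, 6.65 and 7.07) above all 15 others, but its 4 other probe sets that reached log2 4 differed by 0.01 to 0.94, in the opposite direction. On the shared date the differences of Tubgcp5 (-0.59), Rcor3 (-0.93) and C1qtnf4 (0.55) were smaller than over all pools. With the mean of Mbp, Cbln1 and Laptm5 as a covariate, the differences of the 16 genes with the smallest p moved by at most 0.05 in the 8 higher genes and by at most 0.11 in the 8 lower ones. The sign of the difference at 4 weeks was the same in 4 of the 8 higher genes and in 6 of the 8 lower ones.

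The largest differences without overlap among genes with a mean of at least 6 in both groups were often set by 1 library. After Fmr1, the long non-coding RNA Tunar was at 9.54, 8.27 and 9.27 in CGG90 and 4.86, 8.26 and 7.04 in wild type (2.30), so that the groups were only just apart, and its other probe set differed by -0.55. B3galt6, a galactosyltransferase of proteoglycan synthesis, was at 9.27, 7.21 and 7.63 against 6.88, 6.46 and 5.01 (1.92). The peroxisomal biogenesis factor Pex10 was at 9.56, 8.29 and 7.70 against 7.34, 6.87 and 7.05 (1.43), and the interferon regulatory factor Irf3 at 9.57, 7.35 and 7.47 against 7.21, 6.12 and 6.57 (1.50). In these 3 genes CGG90 replicate 1 was the highest library. Cask, a scaffold kinase of synapses, differed by 1.60 and the nucleoporin Nup214 by 1.51, but no other probe set of either that reached log2 4 had the same direction (-1.97 and -0.18 for Cask, -0.80 for Nup214).

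On the lower side, Irgq was at 3.68, 7.16 and 7.64 in CGG90 and at 8.22, 7.88 and 8.27 in wild type (-1.97). The cargo receptor Tmed7 was at 3.99, 6.82 and 7.29 against 8.34, 7.95 and 7.51 (-1.90), and the exchange factor Trio at 4.94, 7.73 and 7.80 against 8.26, 8.76 and 8.08 (-1.55). In all 3, CGG90 replicate 1 was far below the other libraries, and without it the differences were -0.73, -0.88 and -0.60. The small GTPase Rab30 (-1.61, or -0.73 without it) and the zinc finger protein Zscan26 (-1.49, or -0.85 without it) had the same pattern, and the other probe set of Rab30 differed by 0.23. For Tmed7, the 3 other probe sets that reached log2 4 differed by only -0.09 to 0.03. The 4 such probe sets of Trio differed by -1.37 to 0.08, with 3 of them lower in CGG90. Cpsf6, a subunit of the complex that cleaves pre-mRNA for polyadenylation, was at 4.75, 6.90 and 6.51 against 7.14, 8.60 and 7.87 (-1.82). Its 4 other probe sets that reached log2 4 also had lower means in CGG90, by 0.33 to 0.80, but all with overlap. The largest of these rested on wild-type replicate 2 alone (5.28, with the other libraries near the lower end of the scale). In Mlh3, a mismatch repair protein (-1.46), and 8430429K09Rik (-1.44) another CGG90 library was the lowest.

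TDP-43, the product of Tardbp, is a splicing factor of the nucleus. Its brightest probe set (1423723_s_at) was at 8.85, 9.23 and 8.87 in CGG90 and at 9.51, 9.77 and 9.66 in wild type. The groups did not overlap, and the difference was -0.66 ± 0.31 SE, with an unadjusted p of 0.0478 and an adjusted p of 1.00 in limma. It was -0.79 on the shared date and between -0.79 and -0.59 when each 8-week library was left out in turn. Probe set 1436318_at was at 7.11, 6.96 and 5.95 in CGG90 and at 7.46, 8.13 and 7.95 in wild type, also without overlap (-1.18). The 3 remaining probe sets had lower means in CGG90 with overlapping groups, at -0.41, -0.36 and -1.39, and the last of these rested on wild-type replicate 2 alone (6.79, with the other 5 libraries near the lower end of the scale). All 5 Tardbp probe sets thus had a lower mean in CGG90, but they read RNA of the same libraries and are not independent. At 4 weeks the difference of the brightest probe set was -0.19 and at 12 weeks 0.37.

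RNA-binding proteins related to TDP-43 were lower in CGG90 in 11 of 14 tested cases and higher in 3, none called, with a median of -0.22 beside -0.07 and 57.5% lower over all genes. The groups did not overlap in 3 of the 14, all lower in CGG90, beside 4.57% of all tested genes: Tardbp, Tial1 and Hnrnpa2b1. Tial1, a stress granule protein, was at 9.20, 7.84 and 8.65 in CGG90 and at 9.51, 9.67 and 9.36 in wild type (-0.95 ± 0.35 SE, adjusted p = 1.00), and its 4 other probe sets differed by -0.34 to -0.47. Taf15, an RNA-binding protein associated with the general transcription machinery, was at 5.70, 5.36 and 7.52 against 7.02, 8.74 and 6.91 (-1.36), with overlap and with a difference of 0.62 on the shared date.

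Proteins that bind CGG repeat RNA were lower in 18 of 23 tested genes (median -0.19, none called, -0.10 with centred arrays and 0.01 on the shared date). Hnrnpa2b1 was at 12.18, 12.20 and 11.94 in CGG90 and 12.34, 12.72 and 12.28 in wild type (-0.34 ± 0.27 SE). Ddx6, an RNA helicase of processing bodies, differed by -0.65 without overlap. Pura, a single-strand binding protein, was at 8.98, 9.69 and 9.13 against 9.57, 10.74 and 9.81, with overlap (-0.78). Among FMRP and its partners 7 of 11 were lower (median -0.18, or 0.07 without CGG90 replicate 1 and 0.01 on the shared date) and Fmr1 was the only one whose groups did not overlap. Nufip1, a partner of FMRP in the nucleus, was at 2.44, 6.10 and 6.81 against 7.08, 6.20 and 7.33, and its difference of -1.75 was -0.41 without CGG90 replicate 1.

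Genes of microRNA biogenesis were lower in CGG90 in 14 of 16 tested cases, with a median difference of -0.42, the lowest of the function lists besides the sex-linked genes. It was -0.35 after quantile normalisation and -0.32 after centring, and -0.18 without CGG90 replicate 1. None was called, and 1 had groups that did not overlap, lower in CGG90, beside 4.57% of all tested genes. This was Tnrc6c, a GW182 protein of the silencing complex, at 3.00, 5.09 and 5.39 in CGG90 and 6.04, 7.58 and 5.78 in wild type (-1.97 ± 0.68 SE, adjusted p = 1.00 in limma), with a difference of -0.39 on the shared date. Its relative Tnrc6b was at 4.46, 6.30 and 5.44 against 6.76, 8.16 and 5.71 (-1.47), with overlap. The list median on the shared date was 0.11.

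**Figure D5:**
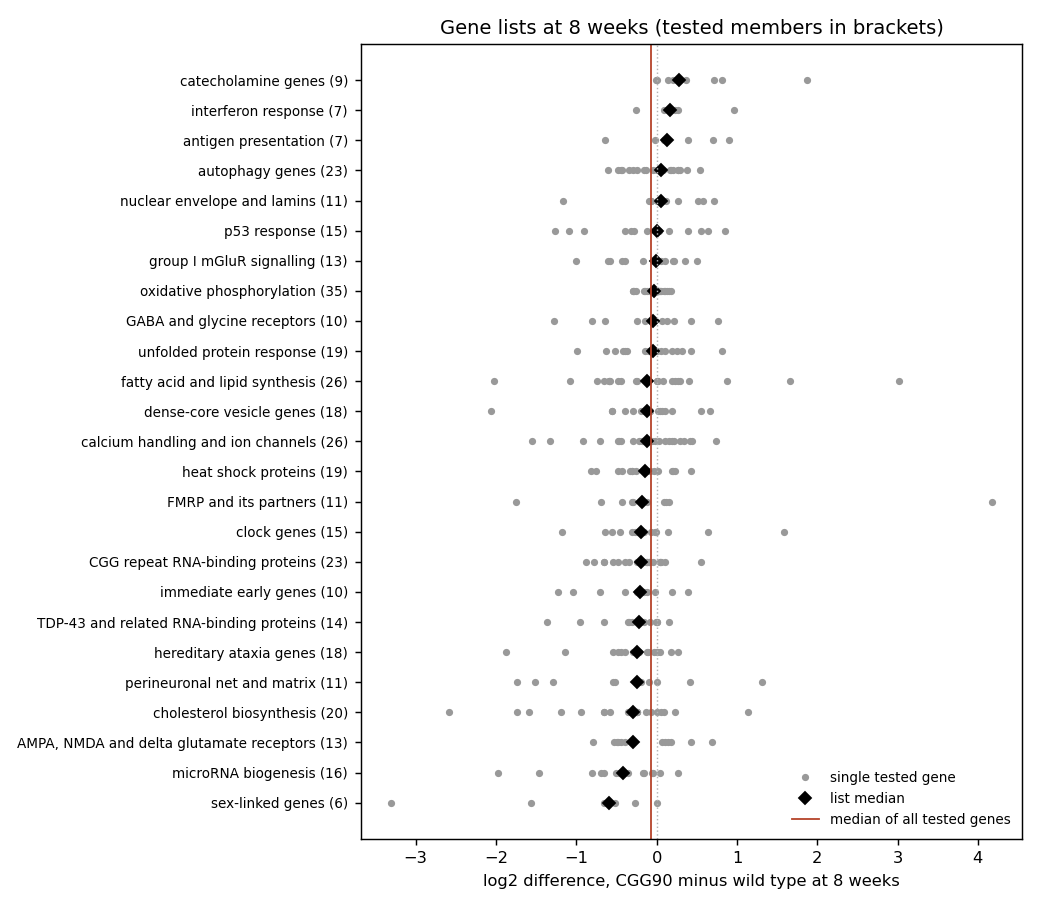
Log2 difference between CGG90 and wild type at 8 weeks (horizontal axis) for every tested member (grey points) of 25 gene lists (vertical axis, number of tested members in brackets), with the list medians as diamonds. The red line is the median of all tested genes (-0.07), and most list medians lie within 0.3 of it while single members spread over several log2 units.

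No gene of the Purkinje cell signalling lists was called. In group I mGluR signalling, which drives slow responses at the parallel fibre synapse, 7 of 13 tested genes were lower and 6 higher (median -0.01), and in no case were the groups apart. Ionotropic and delta glutamate receptors had 7 lower and 6 higher (median -0.30, which was 0.04 without CGG90 replicate 1 and 1.21 on the shared date). GABA and glycine receptors had 5 in each direction (median -0.04, or 0.43 on the shared date), with Glrb, the beta subunit of the glycine receptor, without overlap at 10.38, 10.51 and 10.43 in CGG90 and 10.83, 10.59 and 10.62 in wild type (-0.24). Of 26 genes of calcium handling and ion channels 16 were lower (median -0.12, or 0.54 on the shared date). In 2 the groups were apart, both lower in CGG90, beside 4.57% of all tested genes. They were the potassium channel Kcnc2 (-1.33) and the calcium pump of the endoplasmic reticulum Atp2a2 (-0.14). Kcnc2 was at 4.00, 3.52 and 4.62 in CGG90 and at 4.63, 6.65 and 4.87 in wild type, so that its groups were only just apart. Atp2a2 was at 12.82, 12.62 and 12.76 in CGG90 and at 12.91, 12.85 and 12.85 in wild type. Genes of hereditary ataxias were lower in 13 of 18 cases (median -0.24, or -0.07 without CGG90 replicate 1 and 0.02 on the shared date), none of them without overlap.

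The lists of lipid metabolism held the single called gene, and no other member was called. In fatty acid and lipid synthesis 12 of 26 tested genes were higher and 14 lower (median -0.12, or 0.61 on the shared date). The groups did not overlap in 2, Cyb5rl and Fasn, both higher in CGG90, beside 2.65% of all tested genes. This list holds Cyb5rl together with its relatives and was chosen with earlier results known. Its count is therefore no separate support for these genes, and the same holds for the lists with Nsdhl, Th and Hid1. Gpam, which makes the first step of glycerolipid synthesis, was at 7.20, 7.03 and 8.71 in CGG90 and 8.66, 9.13 and 8.38 in wild type (-1.08), with overlap. In cholesterol biosynthesis 15 of 20 genes were lower (median -0.29), and Nsdhl was the one with groups apart. The median was 0.03 with Mbp, Cbln1 and Laptm5 as 3 covariates and 0.09 on the shared date. Sc5d, a sterol desaturase, was at 4.36, 3.44 and 5.96 against 4.86, 7.37 and 6.73 (-1.74), and Lss, lanosterol synthase, at 4.77, 7.19 and 8.10 against 8.42, 9.07 and 7.33 (-1.59). Both overlapped between the groups, and Lss differed by 0.77 on the shared date.

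Catecholamine genes were higher in 7 of 9 tested cases (median 0.28), and Th was the only one with groups apart. Maoa, a monoamine oxidase, was at 5.36, 5.42 and 6.62 in CGG90 and 5.76, 5.58 and 3.95 in wild type (0.71). Slc18a2, the vesicular monoamine transporter, was at 4.99, 5.31 and 5.11 against 3.02, 5.30 and 4.67 (0.81). Both overlapped. Of 18 dense-core vesicle genes 11 were lower (median -0.12, or 0.75 on the shared date), with Hid1 alone without overlap, and Pcsk1n, the precursor of a prohormone convertase inhibitor, was at 11.00, 10.13 and 11.00 against 10.20, 10.08 and 10.21 (0.55).

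Genes of the cellular stress responses gave no call. Heat shock proteins were lower in 14 of 19 cases (median -0.15, and -0.05 with centred arrays). The groups did not overlap for 2 co-chaperones, both lower in CGG90, beside 4.57% of all tested genes. These were Dnajb1, at 12.40, 12.66 and 12.64 in CGG90 and 12.86, 12.96 and 12.81 in wild type (-0.31), and Dnajb2 (-0.15). The mitochondrial chaperonin Hspd1 was at 10.86, 10.82 and 10.63 against 10.82, 11.09 and 11.38 (-0.33). In the unfolded protein response 12 of 19 genes were lower (median -0.04, or 0.34 on the shared date), among autophagy genes 10 of 23 (median 0.05), and among genes of oxidative phosphorylation 20 of 35 (median -0.03, with all differences between -0.29 and 0.18). The groups were apart for Edem1 of the unfolded protein response, higher in CGG90 (0.81), beside 2.65% of all tested genes. They were also apart for 1 autophagy gene and 2 of oxidative phosphorylation, all lower, beside 4.57%. Proteasome subunits were lower in 29 of 40 cases (median -0.10), and cytoplasmic ribosomal proteins were higher in 30 of 40 (median 0.09). The groups were apart for 1 proteasome gene, lower in CGG90, and for 2 ribosomal genes, both higher. Centring the arrays brought the median to 0 for the proteasome and to 0.19 for the ribosomal proteins.

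In the p53 response 8 of 15 genes were lower and 7 higher. The groups were apart for 1 gene in each direction, beside 4.57% of all tested genes lower and 2.65% higher. Trp53inp1, an effector of p53, was at 7.28, 7.44 and 6.94 in CGG90 and 8.11, 8.65 and 8.72 in wild type (-1.27 ± 0.59 SE). Phlda3 was at 8.71, 9.38 and 8.62 against 8.54, 8.40 and 8.11 (0.55). Clock genes were lower in 12 of 15 cases (median -0.19, and -0.07 after quantile normalisation). The 3 with groups apart, beside 7.22% of all tested genes, did not share a direction. Ciart, a repressor of the clock, was at 7.05, 6.00 and 4.86 in CGG90 and 4.47, 3.90 and 4.77 in wild type (1.59 ± 0.52 SE, adjusted p = 1.00 in limma). The transcription factor Hlf was higher by 0.64, but its other probe set differed by -0.29 with overlap. The nuclear receptor Nr1d1 differed by -0.55. On the shared date Ciart differed by 0.09. The hours at which the mice were killed are not given in the sources used here. Interferon response genes were higher in 6 of 7 cases (median 0.17, or -0.08 without CGG90 replicate 1 and 1.74 on the shared date), without a call. Antigen presentation genes had 5 of 7 higher (median 0.13), genes of the nuclear envelope 7 of 11 higher (median 0.05), immediate early genes 8 of 10 lower (median -0.21, or 0.85 on the shared date) and genes of perineuronal nets and matrix 9 of 11 lower (median -0.25, or 0.63 on that date). Only the immediate early genes among these lists held a gene with groups apart, beside 4.57% of all tested genes lower. This was Fosl2, at 3.10, 2.17 and 2.59 in CGG90 and 3.23, 5.05 and 3.27 in wild type (-1.23). On the shared date the wild-type pool was the one with less RNA of other cells, and the part of this in the list medians of that date was not tested.

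Genes of the sex chromosomes were examined because each pool is labelled as 2 males and 2 females. Kdm5d, a demethylase gene of the Y chromosome, was at 2.64, 3.38 and 4.37 in CGG90 and at 7.02, 7.04 and 6.26 in wild type, without overlap (-3.31 ± 1.27 SE, unadjusted p = 0.0202). Eif2s3y, another gene of that chromosome, was at 3.21, 7.55 and 5.29 against 6.43, 5.35 and 6.25 (-0.66), with CGG90 replicate 1 the lowest and replicate 2 the highest of the 6. The 2 genes thus did not order the libraries alike, and both were lowest in CGG90 replicate 1. Of the X-linked genes in the list, Kdm6a (-1.57), Kdm5c (-0.52) and Eif2s3x (-0.27) also had lower means in CGG90, with overlapping groups, and Ddx3x differed by 0.01. Kdm5c was higher by 0.41 with its probe set of highest variance. Of its 4 other probe sets that reached log2 4, 3 were lower in CGG90, with 1444157_a_at (-1.51) without overlap. The share of RNA from male mice in each pool was not tested.

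The differences at 8 weeks were set beside those at the other ages, which come from other mice. Of the 727 genes whose groups did not overlap at 8 weeks, 61.9% had the same sign of difference at 4 weeks and 42.6% at 12 weeks, beside 55.9% and 47.5% of all tested genes. For Fmr1 the difference was 4.65 at 4 weeks and 0.45 at 12 weeks, where only replicate 3 of the CGG90 libraries was above the wild-type libraries. The 12-week shares above include CGG90 replicates 1 and 2 of that age, in which Fmr1 was not high. In the test of whether the genotype difference at 8 weeks differed from that at 4 weeks, 1 gene was called (0.00993%) and 117 had an unadjusted p below 0.05 (1.16%). The called gene was Cyb5rl, with a change of 3.02 ± 0.39 SE (adjusted p = 0.0139 in limma), since its difference at 4 weeks was 0. That call was lost in 14 and kept in 15 of the alternatives in which the gene was tested. Simulated differences of 1, 2, 3 and 4 log2 units, 50 genes each, were recovered by the same fit in 12%, 46%, 88% and 96% of cases. Even there a difference of 1 log2 unit was mostly missed. All changed genes stood in 1 simulated set, with normal noise of equal spread in every group. The adjusted threshold is stricter where fewer genes are called, so these rates do not carry over to the real arrays. In those, Fmr1 (4.18) and Tigd3 (-3.94) were not called.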

How the data were processed

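Arrays of 45101 probe sets were read from the table of 18 libraries that the authors deposited. Its log2 values were made by the authors with GCRMA, per the submitters' processing notes, a method that adjusts for sequence-dependent background, scales the arrays together and gives 1 value per probe set. The set of arrays scaled together is not given in the sources used here. Of the probe sets, 34958 had 1 gene symbol, 932 several and 9211 were not listed in the annotation. The number of arrays limits the precision.

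The members, gene lists and tests were chosen with earlier results of these data known. Groups followed the titles. Differences came from limma (version 3.58.1, under R 4.3.3), with lmFit and eBayes fitted to the 6 group means over all 18 libraries, two-sided, with Benjamini-Hochberg adjustment over 10068 genes and a threshold of 0.05. The fit was tested on simulated data. Single values used exact permutation tests over samples (20 arrangements). Described by rule were Fmr1, Tardbp, Pcp2, Rpl10a, Mbp, Cbln1 and Laptm5, genes past the threshold, the 8 of smallest p and the 8 of largest difference without overlap (mean at least 6 in both groups) in each direction, and up to 2 members of each of 35 lists. Other list members named because their groups were apart or as further examples (Hnrnpa2b1, Ddx6, Taf15, Foxp2, Lss, Gpam, Nr1d1, Phlda3, Eif2s3y, Kdm5c, Eif2s3x, Ddx3x, Atp2a2, Slc18a2, Dnajb1 and Dnajb2) were chosen after their values were seen. Proteasome and ribosomal genes were taken by symbol. Alternatives varied the samples fitted, filter, floor, variance prior, scaling, array weights, date, replicate block, other-cell covariates, probe set and single libraries.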

Additional observations from a re-analysis of the deposited data

Results flagged for a closer look

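The genotype difference of Cyb5rl at 8 weeks minus that at 4 weeks was 3.02 on the log2 scale (adjusted p = 0.0139, limma interaction with Benjamini-Hochberg adjustment over 10068 genes), a difference between ages tested directly. All 3 CGG90 libraries at 8 weeks lay above the 15 other libraries, whose values were all near the lower end of the scale. The gene reached log2 4, the level needed to be tested, in those 3 libraries only, and its 4-week values were all at the lower end, so this change rests on the same 3 libraries as the difference at 8 weeks. The SD was 0.71 in the CGG90 libraries at 8 weeks and at most 0.10 in the other groups, and the fit pooled these. This call was lost when any 1 of the 4-week libraries was left out (limma adjusted p from 0.0604 to 0.0685). Of the alternatives in which the gene was tested, 15 kept the call and 14 lost it. No explanation was weighed.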

How the results depend on the processing

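At 8 weeks 1 gene was called, Cyb5rl. The count was 0 with a filter at log2 6, under which Cyb5rl was not tested, and 0 with the 8-week libraries alone, a floor at log2 4, the date as a fixed block or the replicate block, and 2 after quantile normalisation or without CGG90 replicate 3 at 12 weeks. It was 1 to 2 when each 8-week library was left out in turn. The Cyb5rl adjusted p was 1.00, 0.0932, 0.167 and 0.0700 with the 8-week libraries alone, the floor, the date block and the replicate block (limma). For the change between 4 and 8 weeks the count was 0 with libraries of those ages alone, the stricter filter (Cyb5rl not tested), the floor, a trended robust prior, the date block, the replicate block or without CGG90 replicates 1 and 2 at 12 weeks, 2 after quantile normalisation, and 0 to 1 over the libraries left out. The date block rests the 8-week difference on the pair of replicate 3. Same-numbered libraries at 8 weeks did not deviate together (r of -0.04, -0.35 and -0.30), although the pools of replicate 3 shared a date. At 4 weeks, where same-numbered pools shared their dates, r was 0.50, 0.02 and 0.61. Each deviation is taken from a mean of only 3 libraries, so the check cannot decide whether the numbers pair them. The adjusted p of Fmr1 was 0.0404 (difference 4.18) without CGG90 replicate 3 at 12 weeks and not below 0.05 otherwise.

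Some small differences turned. With the date block they were 1.83 for Cbln1, 1.16 for Mbp, -0.40 for Rpl10a, 0.32 for Gpam, 0.77 for Lss, 0.62 for Taf15 and 0.01 for Kdm5c. With the probe set of highest variance they were -0.39 for Ercc4, -0.08 for Pcp2, 0.41 for Kdm5c and -0.29 for Ddx3x, and Rpl10a was at -0.0015 after quantile normalisation. Over the libraries left out, the other-cell mean ranged from -0.84 to 0.64, Mbp from -0.93 to 0.12, Cbln1 from -0.84 to 0.55, Laptm5 from -0.74 to 1.25, Rpl10a from -0.09 to 0.15, Ddx3x from -0.20 to 0.23 and Eif2s3y from -1.76 to 0.41. Ddx3x was at -0.02 with 3 marker covariates and -0.09 without both libraries of low other-cell RNA. Of 839 list medians under alternatives 36 moved by more than their spread. The genes of unadjusted p below 0.05 numbered 374, against 1080 with the date block, 634 with array weights, 675 without CGG90 replicate 3 and 718 without a filter.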
